A study of Mus musculus with 18 samples.

Results

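The response of an AhR-null mouse hepatocyte line to loss of adhesion was measured by setting 3 arrays of suspended cells against 3 arrays of adherent cells given DMSO, which are 6 of the 18 arrays of the study. The cells are labelled as hepatocytes of a C57BL/6N mouse, although 22 of 30 hepatocyte markers were detected on none of the 6 arrays. They were transformed with the tsA209 mutant of SV40, lack the aryl hydrocarbon receptor (AhR-/- Hepa) and stably express the tetracycline repressor TetR (pLenti6/TR) and nothing else added. Adherent controls were confluent and received 0.1% DMSO for 8 h. Suspended cells were lifted from their flasks with 0.05% trypsin and 530 µM EDTA, mixed into 1.68% methylcellulose and held there for 8 h. The labels name no DMSO for the suspension, so the comparison sets adhesion, trypsin, methylcellulose and DMSO against each other together. All groups were grown at 34 °C in 5% CO2 with 10% serum and 100 nM dexamethasone, a glucocorticoid. The other 12 arrays also entered the fit: AhR-null cells given 10 µM YH439, an AhR ligand, and the same 3 treatments of a line that also expresses HisMyc-tagged mouse AhR (reconstituted), each with 3 arrays. The labels call the arrays biological triplicates without saying that the cultures were separate, so the p-values measure only the spread between these samples. They do not say whether either line is 1 clone.

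Epithelial cells and fibroblasts read their attachment to matrix through integrins, which signal through focal adhesion kinase, Src and integrin-linked kinase to growth, survival and the actin cytoskeleton. A detached cell loses that signal, rounds up and, unless transformed, often dies by a form of apoptosis called anoikis. Crowded cells in viscous medium can also meet low oxygen or low nutrients, to which cells respond through HIF factors, through ATF4 and its target CHOP, and through factors that control lysosomes. AhR is a ligand-activated transcription factor of the bHLH-PAS family that pairs with ARNT, as the HIF factors do, and loss of adhesion has been described as a setting in which AhR is active without an added ligand.

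Of the 45281 probes, a probe was kept if 3 or more of the 18 arrays detected it at p under 0.05, and 11149 genes could be tested, each by its brightest kept probe. Levels are log2 normalized intensities, and a change is the difference of group means in log2 with its standard error. Between 42.3% and 44.2% of probes were detected on the 6 arrays. Replicate 3 stood apart in both groups: its median intensity was 6.58 in adherent and 6.15 in suspended cells, against 11 to 11.9 on the other 4 arrays. The first principal component of the 6 arrays, with 48.7% of the variance, set replicate 3 of both groups apart from the rest, and the second, with 41.5%, set suspended from adherent cells. Deviations from the group means correlated between same-numbered arrays across genes (r = 0.555, 0.684 and 0.843). Arrays numbered 1 and 2 correlated as much across their numbers (0.543 and 0.681), and each of them ran against number 3 (-0.798 to -0.642), so the check sets replicate 3 apart and does not tell 1 from 2. Values from a fit with the replicate number as a block are given for part of the calls and counts that it changed. Where none is given, the block may still differ. Counts without replicate 3 of both groups are given beside the main groups of genes.

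**Figure D1:**
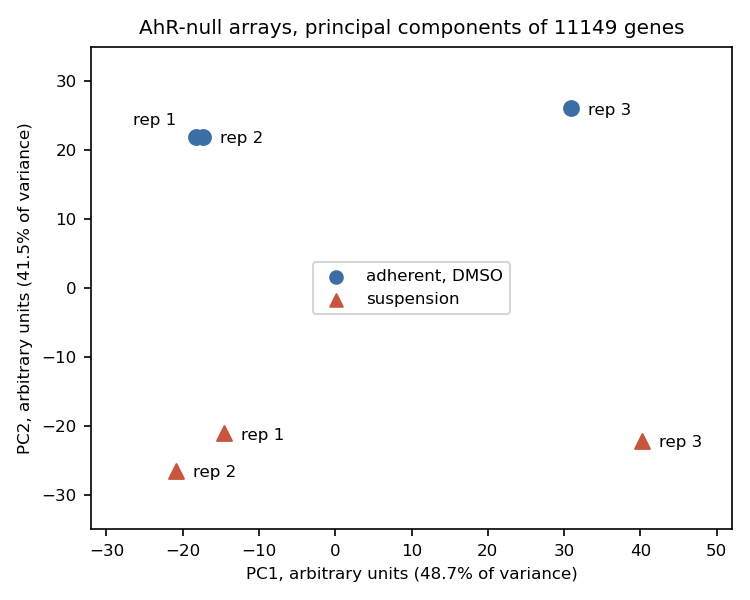
Principal components of the 11149 tested genes on the 6 AhR-null arrays. The horizontal axis is the first component (48.7% of variance) and the vertical axis the second (41.5%), both in arbitrary units. Circles are adherent cells with DMSO and triangles suspended cells. Replicate 3 of both groups lies to the right, and all suspended arrays lie below all adherent arrays.

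The 1 Ahr probe had log2 levels of 5.07, 4.51 and 4.50 in adherent cells and 4.37, 4.39 and 4.33 in suspended cells, and was detected only on adherent replicate 1, at a detection p of 0.0331. It was detected on none of the 9 arrays of the reconstituted line either, so this probe does not check the labels. The single probe for Cyp1a1, the classical AhR target, and the pair of probes for Cyp1a2 were detected on no array.

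Suspension raised 1201 genes and lowered 1323 in the AhR-null cells, together 2524 of the 11149 tested (22.6%; limma, Benjamini-Hochberg adjusted p under 0.05). By direction, 10.8% of all tested genes rose and 11.9% fell. Changes of at least 2-fold were uneven, with 267 genes higher and 83 lower. The median change of all genes was -0.04. Suspended and adherent arrays were fully separated for 3526 genes (31.6%). Of the 1209 called genes with more than 1 kept probe, 1029 (85.1%) had every probe in 1 direction. Tested by probe, 4170 of 22203 passed (18.8%). Without replicate 3 of both groups, 996 genes rose and 1040 fell, and 1882 of these calls were shared with the full set. With the replicate block, 5250 genes passed (47.1%), 2352 higher and 2898 lower, and these held all 2524.

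The largest rises were in genes of hypoxia, of the ATF4 and CHOP stress response and of the circadian clock. Ndrg1, a hypoxia- and stress-responsive gene of the NDRG family, lay at 8.54, 7.95 and 7.52 in adherent cells and at 12.25, 12.46 and 11.05 in suspended cells. The lowest suspended array stood well above the highest adherent one, for a 15.2-fold rise (log2 3.92 ± 0.40, adjusted p = 4.46e-06). Ddit3, which encodes CHOP, a transcription factor of stress-induced death, stood at 9.22, 9.39 and 10.15 against 13.23, 13.27 and 13.81. It rose 14.4-fold (3.85 ± 0.24, adjusted p = 2.67e-08), and the groups were far apart although replicate 3 was the highest array of each. Ciart, a repressor within the circadian clock, was at 6.93, 6.66 and 7.11 in adherent cells and at 10.21, 10.30 and 10.82 in suspension. That was an 11.7-fold rise (3.54 ± 0.20, adjusted p = 7.84e-09). Smtnl2, a smoothelin-like gene, was detected on none of the adherent arrays (4.72, 4.70 and 4.53) and on all suspended ones (7.60, 7.60 and 8.03). Set against the lowest detected signals it was at least 6.57-fold higher (adjusted p = 3.13e-09).

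The placental hormone genes of the prolactin family rose together. Prl2c3 lay at 7.84, 8.11 and 8.41 in adherent and at 11.06, 11.35 and 11.66 in suspended cells (3.23 ± 0.19, 9.39-fold). Prl2c2 rose by 3.17 ± 0.12 and Prl2c4 by 3.19 ± 0.19. The 3 genes are near-identical in sequence, so their probes may read the same transcripts and they are not independent. No suspended array of any of them reached down to an adherent one, which the rule for the largest rises required.

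The largest falls were smaller than the largest rises. Sprr2j-ps, a pseudogene of the small proline-rich family of epidermal envelope genes, lay at 7.82, 8.03 and 7.79 in adherent cells and at 6.21, 5.73 and 5.42 in suspended cells, 4.27-fold lower (-2.09 ± 0.18). Its relatives Sprr2g (-1.60 ± 0.18), Sprr2k (-1.48 ± 0.15) and Sprr2e (-1.14 ± 0.14) also fell, and close sequence again leaves uncertain which member each probe read. Of 9 tested genes of this family 5 fell and 0 rose. Tagln, the actin-binding protein transgelin, stood at 6.78, 6.60 and 6.95 against 4.73, 4.95 and 5.12. It was 3.59-fold lower (-1.85 ± 0.15, adjusted p = 5.27e-07), and only 1 of the 3 suspended arrays detected it. Mycbp, which encodes a MYC-binding protein, was at 9.60, 9.53 and 9.47 in adherent and at 7.94, 7.62 and 7.64 in suspended cells (3.49-fold lower, -1.80 ± 0.12). The other large falls included genes of the cell surface and the matrix. Among them were Cd248, the stromal surface protein endosialin (-1.59 ± 0.12), Spon2, a secreted matrix protein (-1.59 ± 0.14), and Efnb1, a membrane ligand of Eph receptors (-1.52 ± 0.10). Chst13, a chondroitin sulfotransferase, changed by -1.61 ± 0.13. Rgs17, a regulator of G protein signalling, fell by 1.56 ± 0.17 on the log2 scale. Angptl7, a secreted angiopoietin-like protein, and Lgr6, a receptor for R-spondins, were detected on all adherent and on no suspended array, and were at least 2.86-fold and at least 2.38-fold lower.

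**Figure D2:**
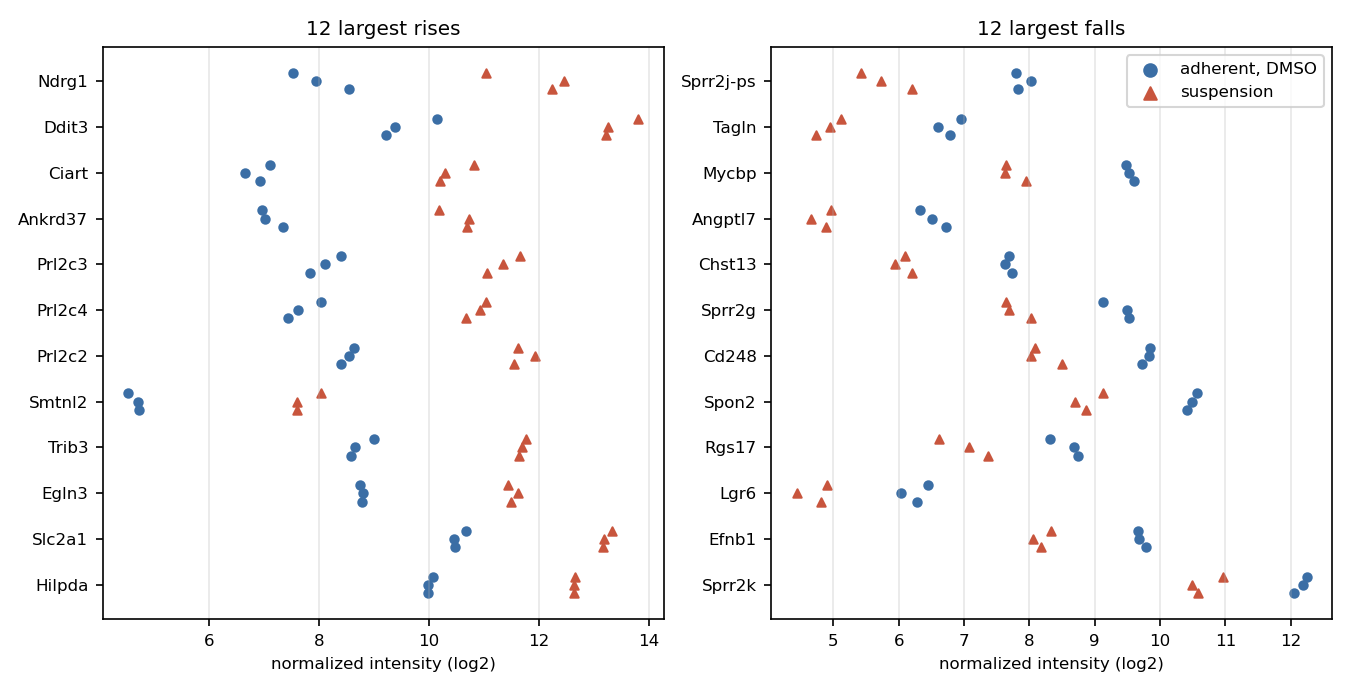
Levels on each array for the 12 largest rises (left) and the 12 largest falls (right). The horizontal axes give normalized intensity in log2. Circles are the 3 adherent arrays with DMSO and triangles the 3 suspended arrays. In each row all triangles lie on 1 side of all circles, which the rule that chose these genes required.

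Genes of the integrated stress response rose. ATF4 is a transcription factor made when translation is slowed by amino acid or endoplasmic reticulum stress, and it drives CHOP, amino acid transporters and enzymes, and feedback genes. Of 26 tested ATF4 and CHOP stress genes 20 rose and 0 fell, with a median change of 0.88, and the same 20 to 0 count was found without replicate 3. Beside Ddit3, Trib3, a pseudokinase that restrains this response, was at 8.58, 8.66 and 9.01 in adherent cells and at 11.65, 11.70 and 11.77 in suspended cells. It rose 7.77-fold (2.96 ± 0.11, adjusted p = 1.04e-10), and the suspended arrays were close together. Chac1, which breaks down glutathione, stood at 10.02, 10.11 and 10.28 against 12.40, 12.56 and 12.80 (5.46-fold, 2.45 ± 0.14). Ddit4, an inhibitor of mTORC1, was at 10.06, 10.08 and 10.07 against 11.79, 11.87 and 11.83 (3.38-fold). Atf3, a factor downstream of ATF4, rose by 1.83 ± 0.12 and the sestrin Sesn2 by 1.69 ± 0.17. Ppp1r15a, the phosphatase subunit that restores translation, rose by 2.33 ± 0.19 and the cystine transporter subunit Slc7a11 by 1.57 ± 0.18. The serine synthesis enzymes Phgdh (0.49) and Psat1 (0.84) and asparagine synthetase Asns (0.63) rose by less. The Atf4 transcript itself did not pass the test, with levels of 13.11, 13.19 and 12.13 against 13.57, 13.77 and 12.60 (0.50 ± 0.36, adjusted p = 0.373). Replicate 3 was the lowest array of both groups, and the block put the adjusted p at 6.03e-05.

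Promoter sequence from RefSeq, 250 bases before to 50 after the start on build GRCm38.p6, was found for 9055 of the tested genes. A gene counts as holding a motif if any of its promoters does, while shares of all promoters count each promoter. The shares of genes and of all promoters are therefore unlike measures. The amino acid response element core, TGATGNAAN read on both strands, was in 8 of the 24 ATF4 list genes with a promoter (33.3%). It was in 2.77% of all tested genes with a promoter and in 3.95% of all 32851 promoters. Trib3 (chr2:152344011-152344310, minus strand) and Chac1 (chr2:119350992-119351291, plus strand) are shown because they rose most among the matching members. The match is in capitals, reads on the opposite strand in both, and begins 13 bases after the start in Trib3 and 194 bases before it in Chac1.
Trib3: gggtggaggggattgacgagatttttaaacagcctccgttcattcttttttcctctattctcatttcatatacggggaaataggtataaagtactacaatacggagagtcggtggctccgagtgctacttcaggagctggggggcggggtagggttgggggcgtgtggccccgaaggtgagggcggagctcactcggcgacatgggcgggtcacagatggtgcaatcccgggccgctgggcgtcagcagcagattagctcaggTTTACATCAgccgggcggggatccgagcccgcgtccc
Chac1: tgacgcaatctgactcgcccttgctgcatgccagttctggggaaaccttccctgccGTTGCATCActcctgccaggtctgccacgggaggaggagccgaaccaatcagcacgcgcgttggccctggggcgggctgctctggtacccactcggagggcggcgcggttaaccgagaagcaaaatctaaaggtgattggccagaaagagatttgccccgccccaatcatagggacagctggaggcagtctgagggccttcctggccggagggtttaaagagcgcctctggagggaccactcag

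Transfer RNA synthetases, many of them ATF4 targets, moved less. Of 19 tested 6 rose and 1, Kars, fell (-0.44), with a median of 0.26. Cars, for cysteine, rose most, from 7.39, 7.43 and 7.69 to 8.54, 8.86 and 9.17 (1.35 ± 0.17), ahead of Sars, for serine (0.77 ± 0.12), and Nars, for asparagine (0.63 ± 0.11). The block raised the count to 9 higher and 4 lower, and median scaling lowered it to 2 and 1.

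Genes of the endoplasmic reticulum, which fold and degrade secreted proteins, rose in 14 of 22 tested members, and 1 fell, with a median of 0.75. Without replicate 3 the count was 11 higher and 1 lower, and with median scaling it was 9 and 1. Herpud1, a factor of endoplasmic reticulum degradation, was at 11.40, 11.46 and 11.34 in adherent and at 13.96, 13.97 and 13.91 in suspended cells. The 3 arrays of each group were close together and the rise was 5.85-fold (2.55 ± 0.08, adjusted p = 2.06e-11). Dnajb9, a cochaperone, stood at 9.74, 9.72 and 9.53 against 11.54, 11.68 and 11.24 (3.54-fold). Syvn1, the ubiquitin ligase of the same degradation pathway, rose by 1.23 ± 0.12 and Creld2, a stress-induced secreted factor, from 10.51, 10.62 and 10.57 to 11.60, 11.63 and 11.63 (2.07-fold). Xbp1, a transcription factor of the unfolded protein response, rose by 0.78. Sec61b, a subunit of the import channel, was the member that fell (-0.61). Hspa5, the chaperone BiP, had levels of 10.72, 10.80 and 8.41 against 11.91, 12.56 and 10.28. Replicate 3 was far below the others in both groups, and the change of 1.61 ± 0.71 did not pass (adjusted p = 0.124), although the block gave an adjusted p of 1.17e-06.

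The endoplasmic reticulum stress element, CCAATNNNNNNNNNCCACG on both strands, was in 8 of the 19 genes of this list with a promoter (42.1%). It was in 0.155% of all tested genes with a promoter and in 0.119% of all promoters. The 8 were Calr, Creld2, Dnajc3, Ero1b, Hsp90b1, Hspa5, Pdia6 and Syvn1. Creld2 (chr15:88819396-88819695, plus strand) is shown as a member that rose. The capitals mark the element, which reads on the opposite strand and begins 126 bases before the start.
Creld2: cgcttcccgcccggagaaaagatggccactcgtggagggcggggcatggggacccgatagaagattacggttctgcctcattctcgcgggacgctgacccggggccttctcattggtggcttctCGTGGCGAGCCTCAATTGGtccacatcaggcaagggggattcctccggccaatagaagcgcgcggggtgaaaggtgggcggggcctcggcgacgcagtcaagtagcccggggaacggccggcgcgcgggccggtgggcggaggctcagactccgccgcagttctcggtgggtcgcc

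Hypoxia-inducible genes outside glycolysis were the list with the largest share of rises among those with more than 3 members: 19 of 24 tested rose and 0 fell, with a median of 1.70, and the count was the same without replicate 3. The oxygen-labile HIF factors pair with ARNT and bind the core ACGTG. Ankrd37, a hypoxia-inducible ankyrin repeat gene, was at 7.35, 7.01 and 6.96 in adherent and at 10.69, 10.74 and 10.18 in suspended cells (10.8-fold, 3.43 ± 0.17, adjusted p = 2.79e-09). Egln3, a prolyl hydroxylase that marks HIF for decay, stood at 8.79, 8.81 and 8.74 against 11.50, 11.63 and 11.44 (6.69-fold, 2.74 ± 0.12). Hilpda, an inhibitor of lipid droplet breakdown, stood at 9.98, 9.99 and 10.07 against 12.64, 12.65 and 12.66 (6.22-fold). In these genes the arrays of each group were close together and the gap between groups was many times their spread. Vegfa, the angiogenic growth factor, rose by 2.33 ± 0.11 and Kdm3a, a histone demethylase, by 2.16 ± 0.09. The mitophagy receptor Bnip3 rose by 1.92 ± 0.32, and its signal was detected on only 1 adherent array. Hif1a itself, whose product is controlled after translation, was at 0.16 and did not pass.

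Glucose uptake and glycolysis moved with them. Of 18 tested genes 12 rose and 1 fell, with a median of 0.66, and without replicate 3 the count was 13 higher and 0 lower. Slc2a1, the glucose transporter GLUT1, was at 10.47, 10.45 and 10.67 in adherent cells and at 13.18, 13.19 and 13.34 in suspended cells. It rose 6.52-fold (2.71 ± 0.11, adjusted p = 3.57e-10). Pdk1, a kinase that inhibits pyruvate dehydrogenase, stood at 8.25, 8.41 and 8.22 against 10.10, 10.14 and 9.79 (3.29-fold). The phosphofructokinase Pfkl rose by 1.56 ± 0.12 and the hexokinase Hk1 by 1.11 ± 0.14, while lactate dehydrogenase Ldha and Gapdh rose by 0.65 and 0.47. The muscle phosphofructokinase Pfkm was the member that fell, by 0.31 on the log2 scale.

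The core ACGTG, searched on both strands, was in 14 of the 18 hypoxia list genes with a promoter (77.8%) and in 11 of the 17 glycolysis list genes (64.7%). It was in 29.2% of all tested genes with a promoter and in 19.6% of all promoters. Among genes with a promoter that changed at least 2-fold, it was in 90 of 208 that rose (43.3%) and in 10 of 56 that fell (17.9%). Ankrd37 (chr8:45999801-46000100, minus strand) and Egln3 (chr12:54203825-54204124, minus strand) are shown as members with large rises. The capitals mark the core, which begins 241 and 6 bases before the start in Ankrd37 and 229 bases before it in Egln3.
Ankrd37: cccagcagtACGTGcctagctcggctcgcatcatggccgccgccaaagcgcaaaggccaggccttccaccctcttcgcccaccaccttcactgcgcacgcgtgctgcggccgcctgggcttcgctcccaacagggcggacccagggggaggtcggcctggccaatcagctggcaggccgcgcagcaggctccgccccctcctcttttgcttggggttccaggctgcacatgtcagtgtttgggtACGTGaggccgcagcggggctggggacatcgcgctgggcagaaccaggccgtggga
Egln3: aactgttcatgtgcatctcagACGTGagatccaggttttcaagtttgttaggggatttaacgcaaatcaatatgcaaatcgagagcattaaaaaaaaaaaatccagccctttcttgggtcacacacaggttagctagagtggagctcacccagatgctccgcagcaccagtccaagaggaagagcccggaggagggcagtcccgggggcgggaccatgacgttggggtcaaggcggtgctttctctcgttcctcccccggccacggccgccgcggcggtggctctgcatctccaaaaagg
The AhR core GCGTG was in 63% of the genes with a promoter that rose at least 2-fold and in 39.3% of those that fell as far. It was in 55.2% of all tested genes with a promoter and in 32.4% of all promoters. Among list genes with a promoter it was in 77.8% for hypoxia and 64.7% for glycolysis. A match in these windows is a description and does not show binding.

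**Figure D3:**
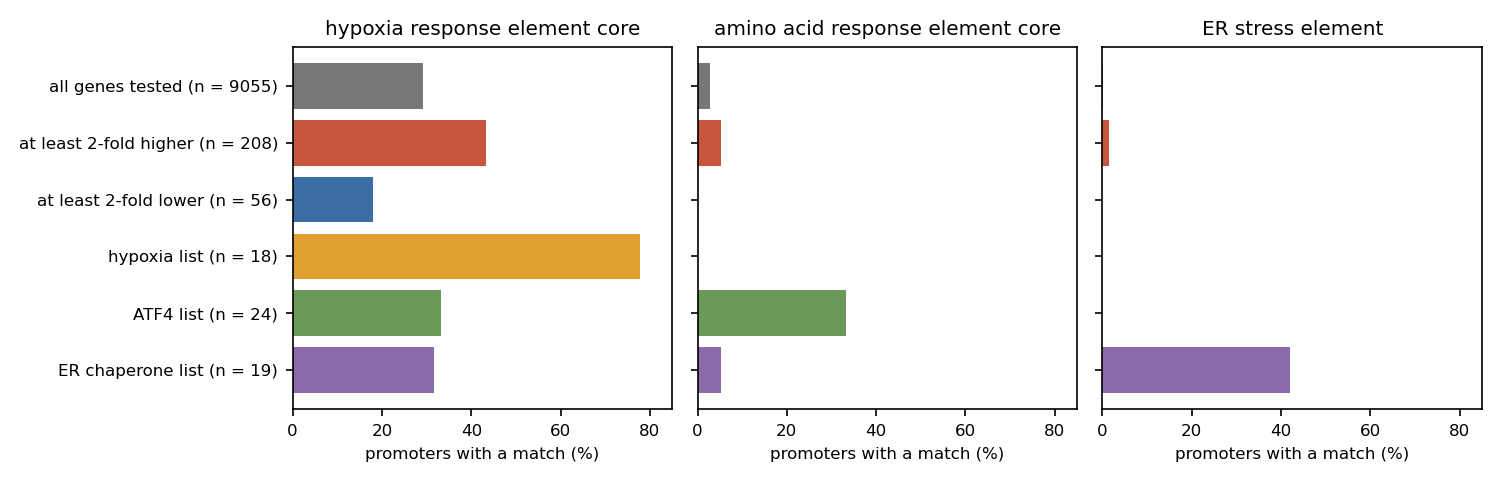
Share of genes with at least 1 match to each of 3 motifs in any of their promoters, searched on both strands from 250 bases before to 50 after the start. The horizontal axes, labelled as promoters, give percent of genes with a promoter. The bars are the sets named at the left with their number of such genes. The hypoxia core is in 77.8% of hypoxia list genes and the amino acid response core in 33.3% of ATF4 list genes. The endoplasmic reticulum stress element is in 42.1% of the chaperone list genes.

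Clock genes rose in 5 of 13 tested members and 0 fell, with a median of 0.37. The block gave 8 and the arrays without replicate 3 gave 7. Ciart has been described above, and Bhlhe40, a repressor that also answers to hypoxia and is on the hypoxia list as well, rose from 10.37, 10.33 and 10.23 to 12.82, 12.96 and 12.43 (5.38-fold). Dbp, an output factor of the clock, stood at 8.01, 7.96 and 8.11 against 8.91, 8.98 and 9.15 (1.98-fold). Rora, an activating nuclear receptor of the clock, was detected on no adherent array and on all suspended ones, at least 2.06-fold higher. The E-box CACGTG, which contains ACGTG, was in 20.2% of the genes with a promoter that rose at least 2-fold. It was in 3.57% of those that fell as much and in 11.8% of all tested genes with a promoter. Ciart (chr3:95882179-95882478, minus strand) is shown because it holds 3 such boxes, in capitals, that begin 116, 58 and 44 bases before the start.
Ciart: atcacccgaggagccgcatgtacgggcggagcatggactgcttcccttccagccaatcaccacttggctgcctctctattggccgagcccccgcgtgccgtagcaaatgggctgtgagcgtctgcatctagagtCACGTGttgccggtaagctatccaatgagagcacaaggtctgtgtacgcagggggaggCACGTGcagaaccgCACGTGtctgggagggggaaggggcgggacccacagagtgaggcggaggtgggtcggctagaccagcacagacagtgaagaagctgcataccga

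Targets of NRF2, the sensor of oxidants and electrophiles, rose in 8 of 25 tested members and 1 fell, with a median of 0.27. With the block 13 rose and 4 fell. The heme oxygenase Hmox1 was at 8.34, 8.28 and 8.40 in adherent and at 10.42, 10.87 and 10.39 in suspended cells (4.65-fold, 2.22 ± 0.16). The glutathione transferases Gsta1 and Gsta2, which are close paralogs, stood at 6.64, 6.47 and 6.35 against 8.60, 9.22 and 8.47 (2.28 ± 0.20) and at 6.31, 6.32 and 6.16 against 7.92, 8.37 and 7.91 (1.81 ± 0.19). Sqstm1, the autophagy receptor p62, rose by 1.63 ± 0.14 and Gclm, of glutathione synthesis, by 0.42. The member that fell was Gstm1 (-0.33 ± 0.11, adjusted p = 0.049).

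AhR target genes were split in these cells, which lack the receptor. The AhR gene battery had 12 tested genes, of which 5 rose and 2 fell, with a median of 0.27. In a fit of only the 6 arrays 3 rose and 0 fell. Tiparp, an ADP-ribosyltransferase that represses AhR, was at 5.94, 5.97 and 5.40 in adherent and at 6.72, 7.02 and 6.36 in suspended cells, and rose 1.91-fold (0.93 ± 0.19, adjusted p = 0.00242, and 0.0572 in the fit of 6 arrays). Gsta1, on this list too, Xdh, xanthine dehydrogenase (0.90 ± 0.12), Adh7, an alcohol dehydrogenase (0.95 ± 0.24), and Nfe2l2, which encodes NRF2 (0.63 ± 0.09), were the others that rose. Cyp1b1, a cytochrome P450, lay at 11.79, 11.63 and 11.08 in adherent and at 10.80, 10.65 and 9.75 in suspended cells. It was 2.14-fold lower (-1.10 ± 0.27, adjusted p = 0.00759), with replicate 3 lowest in both groups, and without replicate 3 the change was -0.99 ± 0.23 (adjusted p = 0.0093). The fit of 6 arrays did not call it (adjusted p = 0.0827). Serpinb2, a plasminogen activator inhibitor, also fell (-0.55 ± 0.19). Aldh3a1, an aldehyde dehydrogenase, stood at 9.11, 9.30 and 9.39 against 9.28, 9.39 and 9.78, and its groups overlapped. Its change of 0.22 ± 0.14 did not pass (adjusted p = 0.31), although the block gave an adjusted p of 0.0444. The quinone reductase Nqo1 stood at 6.04, 5.59 and 6.29 against 5.80, 5.53 and 5.92 (-0.22 ± 0.19, adjusted p = 0.479), and the block gave an adjusted p of 0.0312. None of 6 tested partners of AhR and ARNT passed, and 2 rose and 1 fell with the block.

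Immediate-early factors, which answer within minutes to growth factors and stress, rose in 11 of 22 tested members and 0 fell, with a median of 0.58 and the same count without replicate 3. Fos was at 7.79, 7.93 and 8.01 in adherent and at 9.31, 9.67 and 9.94 in suspended cells (3.31-fold, 1.73 ± 0.16). Ier3, a stress-induced survival gene, stood at 10.08, 10.18 and 10.51 against 11.74, 11.79 and 12.34 (3.25-fold). Maff (1.84 ± 0.29), Klf4 (1.62 ± 0.27), Jun (0.78 ± 0.22) and Myc (0.87 ± 0.20) rose as well, while Egr1, a marker of ERK signalling, stood at 0.12 and did not pass. Among 17 MAP kinase phosphatases and Sprouty genes 4 rose and 1 fell. Dusp4, an ERK phosphatase, rose from 9.86, 9.72 and 9.22 to 11.08, 11.67 and 11.09 (3.19-fold) and Dusp1 by 0.90 ± 0.13, and Dusp14 fell (-0.51 ± 0.14).

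Contractile genes passed in shares near that of all genes (22.6%). SRF with its actin-sensing cofactor MRTF drives smooth muscle and actin genes. Of 19 such targets 1 rose and 4 fell (26.3%), with a median of -0.24, and the block gave 1 higher and 10 lower. Without replicate 3 the count was 0 higher and 3 lower. Beside Tagln, the myosin light chain Myl9 stood at 6.85, 6.64 and 7.40 against 5.75, 5.36 and 6.00 (2.4-fold lower), and the calponin Cnn2 fell by 0.84 on the log2 scale. Fhl2, a LIM-domain cofactor, was the member that rose (0.34 ± 0.09). The Cnn2 call was lost in 6 of 18 alternatives and the Fhl2 call in 5, with adjusted p up to 0.0842 and 0.418. Targets of YAP, the coactivator lost from the nucleus of detached cells, fell in 3 of 16 and 0 rose (18.8%), with 6 lower and 1 higher under the block and 5 lower with median scaling. Amotl2, an angiomotin that binds YAP, was at 9.31, 9.25 and 9.57 against 8.08, 8.34 and 8.63 (2.04-fold lower). Ankrd1 fell by 0.76 ± 0.15 on the log2 scale and Ccn2, connective tissue growth factor, by 0.52 ± 0.15, while Ccn1 stood at -0.44 without passing. The Ccn2 call was lost in 6 of 18 alternatives, with adjusted p up to 0.111. The list's median was -0.03, close to that of all genes.

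Among 25 integrin and focal adhesion genes 2 rose and 4 fell, with a median of 0.03, with 4 and 6 under the block and 0 of either in the fit of 6 arrays. Talin Tln1 (-0.73 ± 0.18), which links integrins to actin, the kinase Src (-0.54 ± 0.14), integrin-linked kinase Ilk (-0.53 ± 0.14) and the tensin Tns3 (-0.29) were the 4 that fell. Kindlin-2, encoded by Fermt2 (0.51 ± 0.10), and caveolin Cav1 (0.52 ± 0.16) rose. The called share of this list, 24%, was near the 22.6% of all genes.

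Matrix genes were called in 24% of cases, also near the share of all genes. Of 25 tested 4 rose and 2 fell, with a median of -0.09, against 4 and 8 with the block, 0 and 0 in the fit of 6 arrays, and 0 and 2 with median scaling. The basement membrane collagens Col4a1 and Col4a2, which lie head to head in the genome, rose together, from 12.87, 12.98 and 13.18 to 13.49, 13.65 and 14.00 (0.70 ± 0.13) and from 11.50, 11.38 and 11.60 to 11.89, 12.02 and 12.20 (0.54 ± 0.10). The proteoglycan Dcn rose (0.36) and its relative Bgn fell (-0.42). Proteases and their inhibitors fell in 5 of 16 and 1 rose. Stromelysin Mmp3 stood at 10.62, 10.38 and 9.84 against 9.06, 9.14 and 8.89 (2.37-fold lower), and its inhibitor Timp1 at 12.50, 12.61 and 12.85 against 11.75, 11.57 and 11.96 (1.86-fold lower). Timp3, Mmp10 and Adamts4 fell by 0.60, 0.83 and 0.74 on the log2 scale, and Mmp11 rose (0.99 ± 0.25).

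At cell junctions 3 of 16 tested genes rose and 2 fell, and with median scaling 0 rose. P-cadherin, encoded by Cdh3, was at 8.95, 8.77 and 8.73 in adherent and at 7.79, 7.59 and 7.84 in suspended cells (2.11-fold lower, -1.08 ± 0.10), and the tight junction protein F11r fell (-0.47). Desmoglein Dsg2 (0.47), beta-catenin Ctnnb1 (0.47) and connexin Gja1 (0.38) rose. Of 9 tested keratins 3 rose and 1 fell. Of the pair of simple epithelia, Krt18 stood at 6.60, 7.13 and 7.26 against 8.43, 8.40 and 8.58 (2.78-fold). Krt8 stood at 8.5, 8.69 and 8.49 against 9.32, 9.56 and 8.90 (1.62-fold). Its call was lost in 7 of 18 alternatives, with adjusted p up to 0.297. The stress keratin Krt16 rose by 1.41 ± 0.19, and Krt23 fell by 0.51 on the log2 scale. On adherent arrays 1 and 3 Krt16 lay at 4.7 and 5.05, below their lowest detected signals of 4.98 and 5.06. The size of its rise is therefore uncertain.

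Most of the inflammatory genes that passed fell. Of 18 NF-kB and inflammatory mediators 5 fell and 1 rose, with a median of -0.11. The chemokine Cxcl1 lay at 12.10, 12.24 and 12.36 in adherent and at 10.75, 10.78 and 10.99 in suspended cells (2.63-fold lower, adjusted p = 3.55e-07). The growth factor Csf1 stood at 9.89, 9.91 and 9.72 against 8.54, 8.79 and 8.03 (2.62-fold lower), and the chemokines Ccl2 and Ccl7 fell by 0.99 and 1.00 on the log2 scale. Tnfaip3, a brake on NF-kB, rose (0.83 ± 0.14). Interferon-stimulated genes fell in 6 of 21 and 3 rose (0 rose and 4 fell both without replicate 3 and with median scaling). Among them were Gbp2 (-0.89 ± 0.20) and the immunoproteasome subunits Psmb8 (-0.63) and Psmb9 (-0.84). These subunits are also proteasome genes, of which 8 of 33 fell and 0 rose, with a median of -0.26. Their called share of 24.2% was near the 22.6% of all genes. The block put the count of falls at 19 and the fit of only the 6 arrays at 2. The other inducible subunit, Psmb10, fell from 9.46, 9.44 and 9.77 to 8.85, 8.43 and 8.70 (1.86-fold).

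Among genes of the cell cycle, most mitosis genes that passed fell. Of 24 mitosis genes 11 fell and 1 rose, with a median of -0.35. The block gave 18 lower, the arrays without replicate 3 gave 8, and a fit of only the 6 arrays compared gave 1. Cenpa, the centromeric histone, was at 13.28, 13.32 and 13.49 in adherent and at 12.80, 12.59 and 12.67 in suspended cells (1.6-fold lower). Cdca3, a trigger of mitotic entry, stood at 11.09, 11.07 and 11.50 against 10.72, 10.31 and 10.33 (1.7-fold lower), and the kinase Plk1 and the phosphatase Cdc25c fell by 0.83 and 0.87 on the log2 scale. Nek2, a centrosome kinase, was the member that rose (0.91 ± 0.13), from a signal detected on only 1 adherent array. Of 33 genes of DNA replication 4 rose and 5 fell, a called share of 27.3%, near the 22.6% of all genes. With the block 8 rose and 9 fell. Median scaling gave 1 and 4, and the fit of 6 arrays 1 and 2. The 5 that fell were the ribonucleotide reductase subunits Rrm2 and Rrm1 (-0.24), thymidine kinase Tk1 (-0.78), the dUTPase Dut (-0.70) and Rpa1, of the single-strand binding complex (-0.33). Rrm2 stood at 9.42, 9.30 and 9.63 against 8.72, 8.75 and 8.5 (1.73-fold lower). The licensing factors Cdt1 (0.63 ± 0.10), Cdc6 (0.46) and Orc1 (0.67 ± 0.23) and the initiation factor Mcm10 (0.35) rose.

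Cyclins and CDK inhibitors that act in G1 fell in 6 of 23 and rose in 4, and with the block 9 fell and 7 rose. Median scaling gave 5 and 2, and the fit of 6 arrays 4 and 1. Cyclin D1, encoded by Ccnd1 and dependent on adhesion in many cells, was at 11.15, 11.12 and 11.12 in adherent and at 10.05, 10.11 and 10.38 in suspended cells (1.94-fold lower, -0.95 ± 0.11, adjusted p = 1.96e-05). Cyclin D3, encoded by Ccnd3, fell by 0.69 and cyclin E1, encoded by Ccne1, by 0.72 on the log2 scale. Cdkn1a, the CDK inhibitor p21, stood at 11.52, 11.65 and 11.88 against 12.68, 12.69 and 13.01 (2.15-fold higher). It is also among the p53 targets, of which 10 of 21 rose and 1 fell, with a median of 0.39 (9 and 1 without replicate 3). SV40 large T antigen, with which this line was transformed, is known to bind p53. Gadd45a, a stress sensor, stood at 8.21, 8.18 and 8.21 against 10.15, 10.34 and 10.24 (4.11-fold), and Mdm2, the ubiquitin ligase of p53, at 11.22, 11.34 and 11.47 against 12.54, 12.56 and 12.80 (2.45-fold). The sestrin Sesn1 was the p53 target that fell (-0.67), in contrast to Sesn2.

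Genes of anoikis and survival changed in both directions, 3 of 20 higher and 4 lower, 6 each with the block, and 1 each in the fit of 6 arrays. Bbc3, the death-promoting BH3 protein PUMA, was at 7.52, 7.74 and 7.91 in adherent and at 8.68, 8.70 and 9 in suspended cells (2.1-fold, 1.07 ± 0.15), and Bid (0.69) and the protective Bcl2l1 (0.58) also rose. The pore-former Bak1 (-0.84), the BH3 protein Bad (-0.62), the caspase-8 inhibitor Cflar (-0.66) and Bcl2 (-0.55) fell. Autophagy genes rose in 7 of 23 and 0 fell, with 11 higher and 4 lower under the block and 4 higher in the fit of 6 arrays. Uvrag, of autophagosome maturation, stood at 9.60, 9.53 and 9.80 against 10.60, 10.67 and 10.95 (2.14-fold), and Gabarapl1 and Atg13 rose by 0.87 and 0.82.

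Most mitochondrial genes that passed fell, each by a small amount. Of 72 respiratory chain subunits 22 fell and 2 rose, with a median of -0.30. Their called share was 33.3%, against 22.6% of all genes. With the block 51 fell and 2 rose, without replicate 3, 13 fell and 2 rose, and in a fit of only the 6 arrays 1 fell and 1 rose. Ndufb7, of complex I, was at 9.04, 9.03 and 9.17 in adherent and at 8.42, 8.35 and 8.53 in suspended cells (1.57-fold lower). Mitochondrial ribosomal proteins fell in 17 of 73 and rose in 3, with a median of -0.22. Their called share of 27.4% was near the 22.6% of all genes. The block gave 39 lower and 6 higher, and the fit of 6 arrays 3 and 0. Mrps16 stood at 10.11, 10.23 and 10.48 against 9.46, 9.36 and 9.55 (1.76-fold lower), and Mrpl33 fell by 0.71 ± 0.10 on the log2 scale. Cytosolic ribosomal proteins, by contrast, had 0 calls in either direction among 53 and a median of 0.02, and 5 fell and 1 rose with the block. In genes of ribosome production Ubtf, a factor of RNA polymerase I, was the 1 of 21 that fell (-0.68 ± 0.11), and 0 rose. With the block 5 of these genes fell and 3 rose.

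Other signalling lists gave mixed or small counts. Glucocorticoid targets, in cells that all received dexamethasone, were called in 57.9% of cases, against 22.6% of all genes. They rose in 7 of 19 and fell in 4. Median scaling gave 3 and 4, and the fit of 6 arrays 3 and 1. Of them Gadd45b rose by 1.16 ± 0.16, and the sulfotransferase Sult1a1 fell by 0.79. The TGF-beta and BMP, WNT and heat shock lists were each called in 17.6% of cases, below the 22.6% of all genes. Cholesterol genes were called in 11.8%. TGF-beta and BMP genes rose in 1 of 17 and fell in 2 (3 and 8 with the block, 0 and 4 with median scaling). The ligand Bmp4 stood at 10.36, 10.32 and 10.86 against 9.17, 9.18 and 9.87 (2.16-fold lower), and Tgfb3 fell by 0.88. WNT genes rose in 1 of 17 and fell in 2 (2 and 5 with the block), with the receptor Fzd2 at 8.02, 8.07 and 8.41 against 6.94, 6.63 and 7.31 (2.31-fold lower). Heat shock genes rose in 3 of 17, by at most 0.60 in Hspa9, the mitochondrial HSP70, without replicate 3 in 1, and with median scaling in 0. Cholesterol genes changed in 1 of 17 each way, Sqle higher (0.51) and Nsdhl lower (-0.53), and with the block 5 rose and 7 fell.

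**Figure D4:**
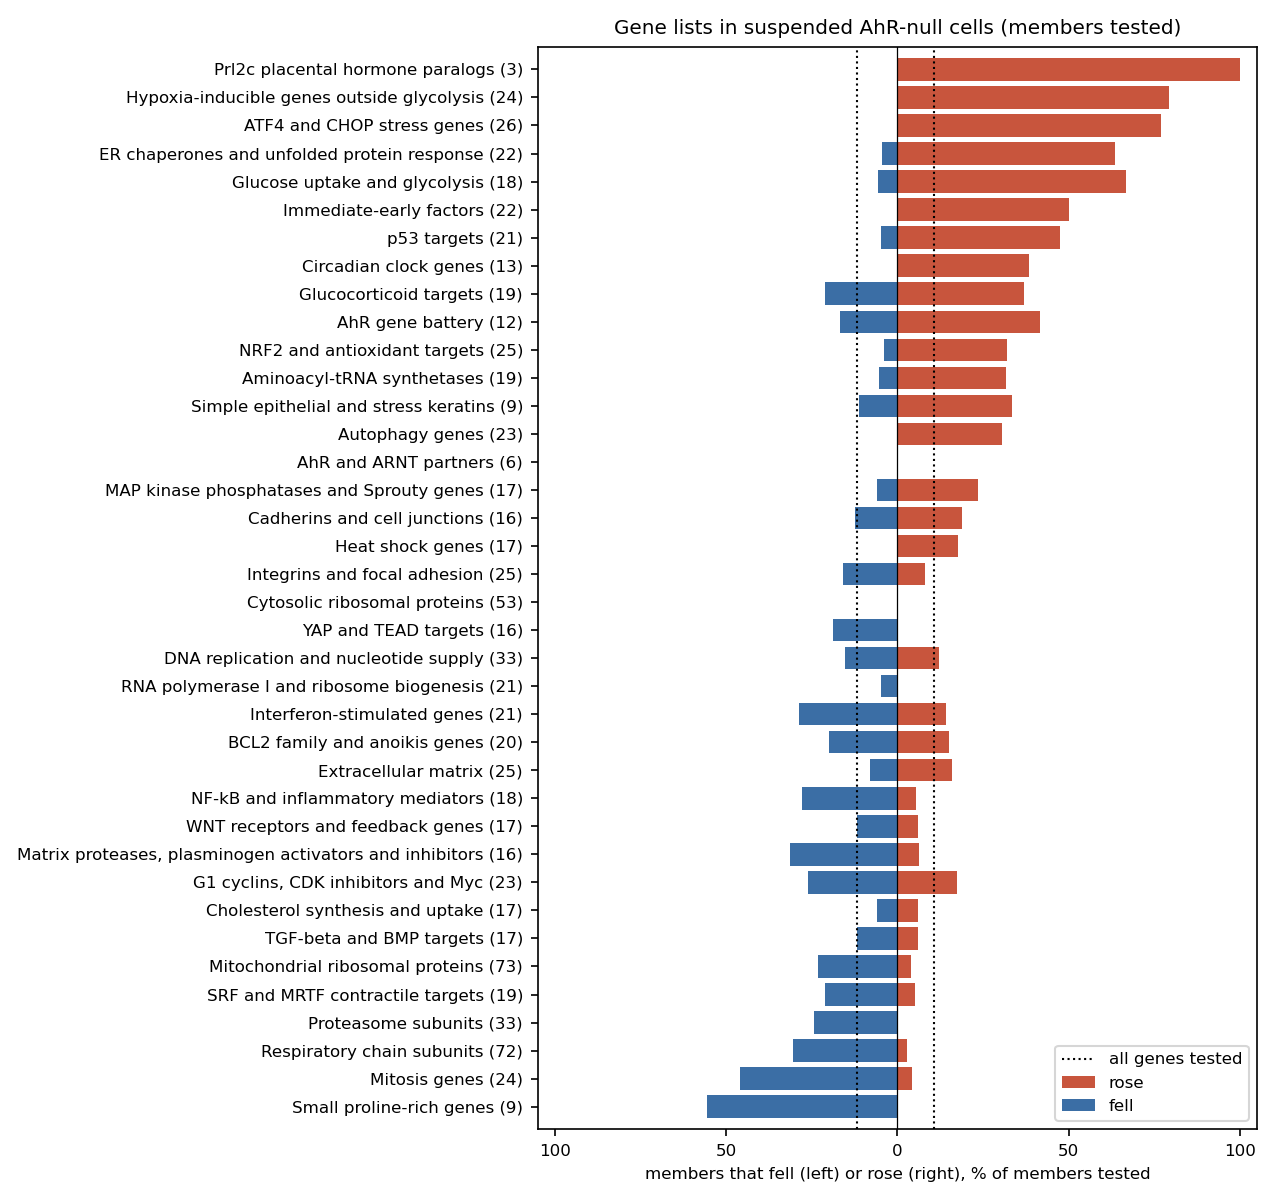
Share of each list's tested members that rose (bars to the right) or fell (bars to the left) in suspended AhR-null cells, in percent, with the number tested in parentheses. Dotted lines mark the shares over all 11149 tested genes, 10.8% higher and 11.9% lower. Hypoxia-inducible and ATF4 genes extend furthest to the right among lists with more than 3 members, and small proline-rich and mitosis genes furthest to the left.

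Some of the largest rises lay in gene groups that were listed only after these values had been seen, so their counts are given as a description. Of 52 genes of the lysosome 20 rose and 2 fell, and of 20 genes of nutrient sensing at the lysosome 6 rose and 1 fell. Dpp7, a lysosomal peptidase, was at 10.48, 10.46 and 10.75 in adherent and at 12.28, 12.66 and 13.17 in suspended cells (4.41-fold). Ctns, the cystine exporter, stood at 8.75, 8.78 and 9.03 against 10.62, 10.73 and 11 (3.79-fold). The proton pump subunit Atp6v0b rose by 1.54, the Rag GTPase Rragd by 1.77 ± 0.16, and folliculin Flcn, a regulator of the Rag GTPases, from 10.50, 10.52 and 10.53 to 11.90, 11.96 and 12 (2.71-fold). Rragd, Flcn and many lysosomal genes are known targets of the MiT-TFE factors.

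Of 19 glycogen genes 9 rose and 0 fell, and 10 rose and 3 fell with the block. Stbd1, which tethers glycogen to membranes, lay at 7.81, 7.92 and 8.02 in adherent and at 10.03, 10.04 and 9.93 in suspended cells (4.24-fold). The branching enzyme Gbe1 rose by 2.20 ± 0.18 from a signal detected on 1 adherent array, and glycogen synthase Gys1 by 1.46 ± 0.22. The phosphatase targeting subunits Ppp1r3b and Ppp1r3c rose by 1.84 and 1.64. The adherent mean of Ppp1r3c, 4.96, lay near the lowest detected signals of those arrays (4.98 to 5.06). FOXO targets rose in 11 of 21 and fell in 2, among the risers Klhl24 (1.66 ± 0.15), Pik3ip1, an inhibitor of PI3 kinase (1.57 ± 0.29), and the muscle ubiquitin ligase Fbxo32 (1.39 ± 0.19). Of 18 Notch genes 3 rose and 0 fell, 16.7% against 22.6% of all genes, and with the block 5 rose and 3 fell. The 3 were the target Hey1 (1.23 ± 0.17), the target Hey2, detected on no adherent array, at least 3.47-fold, and the Notch inhibitor Numb (0.60). Histone genes, by contrast, fell in 21 of 51 and rose in 1, with a median of -0.30, and a fit of only the 6 arrays gave 10 and 0. H2ac8 fell most, from 7.67, 7.97 and 7.78 to 6.62, 6.18 and 6.73 (2.45-fold), and many histone genes are close copies of each other.

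Marker genes describe what the cells expressed. The array held 30 hepatocyte markers, of which every one of the 6 arrays detected 3 and no array detected 22, Alb, Apoa1, Ttr and Cps1 among the latter, so the labelled cell type did not show its defining transcripts. Of 22 mesenchymal and stellate markers 18 gave a signal on each of the 6. Their summed linear signal ran from 79525 to 82008 in adherent and from 66511 to 74948 in suspended cells, so the groups did not overlap. Of the 19 tested, Vim (0.72), Pdgfrb (0.97) and Zeb1 (0.46) rose, and 4, among them Tagln and the intermediate filament gene Des (-0.86), fell, against 12 with the block and 1 in the fit of 6 arrays. The 6 bile duct markers summed to 3866 to 5039 in adherent and 7999 to 9115 in suspended cells, where the transcription factor Sox9 stood at 10.66, 10.52 and 11.05 against 11.98, 12.10 and 12.82 (2.93-fold). Sox9 was the 1 of 4 tested that rose, and Krt19 (0.23, adjusted p = 0.471), Anxa4 (0.16, 0.836) and Krt7 (-0.14, 0.575) did not pass. Of 13 macrophage markers 10 were detected on none of the 6 arrays, Adgre1 included, with sums of 552 to 578 and 593 to 660, and the 1 called member was Csf1r (1.39 ± 0.14). Of 14 endothelial markers 7 were detected on none, Cdh5 and Pecam1 included, and their sums were 3687 to 4094 and 4016 to 4650. The part of these shifts in the other results was not tested, and in bulk RNA fewer cells of a type cannot be told apart from less RNA per cell.

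The same comparison in the reconstituted line shares no arrays with this one. It called 2689 of 11149 genes (24.1%), of which 1970 were called in the same direction in AhR-null cells. That is 78.1% of the AhR-null calls and 73.3% of the reconstituted calls. Of the AhR-null calls, 99.1% had the same sign in the reconstituted line, with a median size of 0.60 against 0.57. Opposite directions were called for 2 genes, Serpinb2 (-0.55 in AhR-null and 0.82 in reconstituted cells) and Fam161a, a ciliary gene (0.60 and -0.49). Across the 11149 genes, which are not independent replicates, the changes of the lines correlated with Pearson's r = 0.89 and Spearman's rho = 0.83.

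A test of the difference between the responses called 1 gene of 11149 (0.00897%), Aldh3a1, and 295 at an unadjusted p under 0.05. In reconstituted cells Aldh3a1 lay at 9.43, 9.47 and 9.39 when adherent and at 11.04, 10.92 and 11.17 in suspension, a rise of 1.61 that no AhR-null array approached. The response of AhR-null cells was smaller by 1.39 ± 0.20 on the log2 scale (adjusted p = 0.0404), and 14 of 23 alternatives lost the call, with adjusted p up to 0.267. With the replicate block 19 genes passed (0.17%), 7 with a higher and 12 with a lower response in AhR-null cells. Among these, Cyp1b1, which fell in AhR-null cells, went from 11.56, 11.73 and 11.87 to 12.08, 11.99 and 12.33 in reconstituted cells (0.42 ± 0.27, adjusted p = 0.304). Nqo1 went from 7.03, 6.69 and 6.88 to 7.84, 7.58 and 7.72 in reconstituted cells. Tagln fell by 0.72 there, against 1.85 in AhR-null cells. The battery as a whole had 8 of 12 members higher and 0 lower in reconstituted cells, with a median of 0.84 against 0.27, and its members' difference was tested only gene by gene. Tiparp rose in both lines, by 1.40 in the reconstituted line, and the difference between the lines had an adjusted p of 0.346 with the block. Of the largest rises of AhR-null cells, the reconstituted line had Ndrg1 at 4.13, Ddit3 at 3.51, Ciart at 3.49 and Prl2c3 at 3.48.

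**Figure D5:**
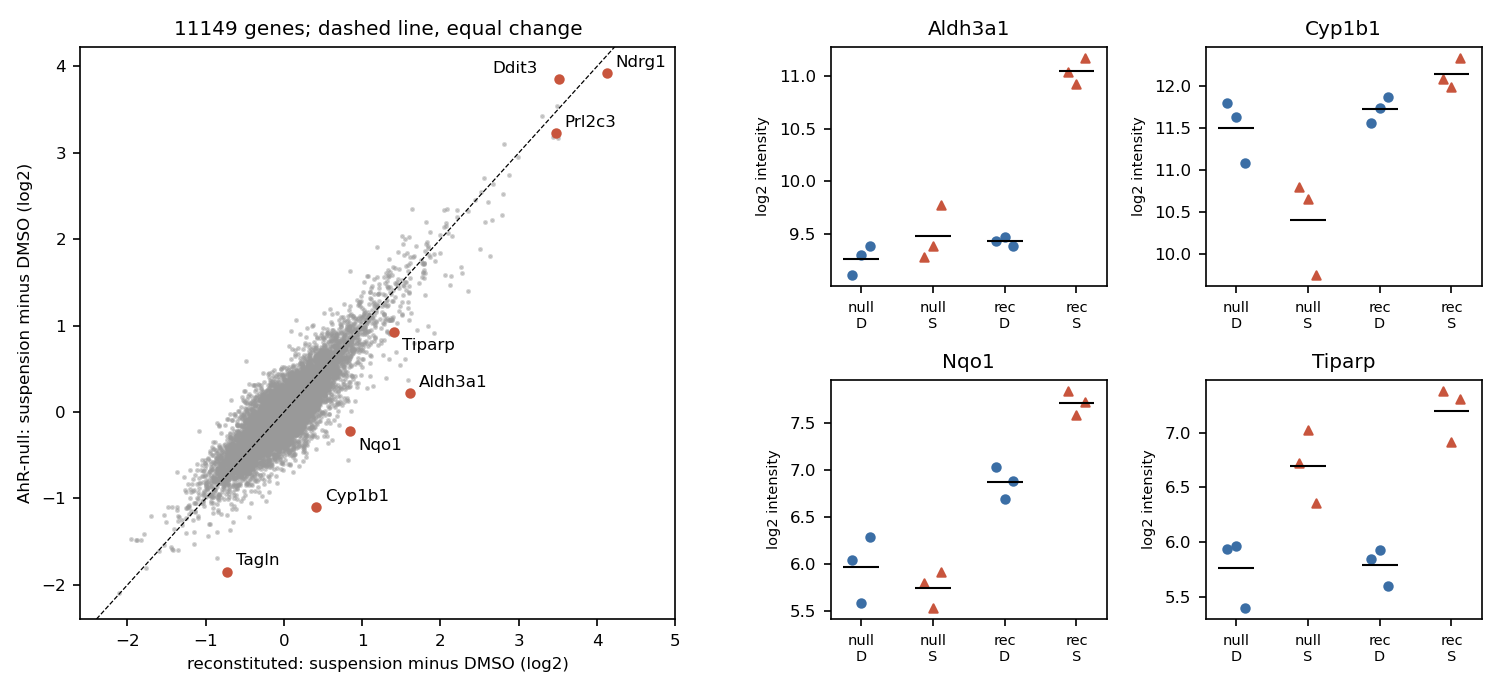
Left, the suspension response of each of the 11149 tested genes in AhR-null cells (vertical axis) against that in reconstituted cells (horizontal axis), both as log2 differences from DMSO, with equal change dashed. Right, log2 levels of Aldh3a1, Cyp1b1, Nqo1 and Tiparp on each array for null and reconstituted (rec) cells under DMSO (D, circles) and suspension (S, triangles), with lines at the group means. Most genes lie along the dashed line, and Aldh3a1, Cyp1b1 and Nqo1 lie below it.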

How the data were processed

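RNA of 18 samples was read on Illumina mouse BeadChips with BeadStudio, per the submitters' processing notes. The authors deposited a table with each probe's background-subtracted intensity, not normalized, and its detection p-value, and a matrix of processed intensity, used as an alternative. The matrix is linear, uncentred, runs in the direction of the signal (rank correlation with the unnormalized values at least 0.99896) and has a floor and a column median of 20. Its scaling stays unknown.

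From the deposited intensity, neqc in limma 3.58.1 (R 4.3.3) corrected the background, taking the negative controls' level from the detection p-values, and after an offset of 16 normalized by quantiles on the log2 scale. Of 45281 probes 22203 passed detection at p under 0.05 on at least 3 of 18 arrays. Gene names came from GEO's platform annotation: 34885 probes named 1 gene, 18 several and 10378 none, and 34807 were found in RefSeq, with 0 symbols changed. Kept probes that named 1 gene numbered 18673, and 3530 others were left out. The brightest kept probe stood for its gene. Group means (6) were fitted to the 18 arrays together (12 residual degrees of freedom) with eBayes, two-sided, with Benjamini-Hochberg adjustment over all genes tested. The fit was tested on simulated data. The number of arrays and the signal over background limit the precision. Where 1 group's arrays all missed a gene, the fold is a bound: the brighter group's mean over the mean, per array, of the higher of the lowest detected signal and its own. The blocked fit used line and replicate number as a factor (8 residual degrees of freedom). The pairing rests on these data. In AhR-null cells deviations of same-numbered arrays correlated in every pair, though numbers 1 and 2 correlated as much with each other. In reconstituted cells same-numbered arrays had r = 0.478, 0.173 and 0.478, and the highest value across numbers was 0.155. The pairing of number 2 is thus weak in that line, on which the blocked differences between the lines also rest.

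The members and lists were chosen with earlier results of these data known, and the lysosome, nutrient sensing, glycogen, FOXO, Notch and histone lists after these values were seen. Named were Ahr, Cyp1a1, Cyp1b1, Tiparp, Nqo1 and Aldh3a1, the 12 largest rises and falls past the threshold without overlap, detected on all brighter arrays and with a gene name other than a clone's, the 4 or fewer members with the smallest p in each list, and up to 8 differences between the lines in each direction. Any other gene named was chosen after its values were seen. Slide and array position were not used here. Summed marker levels are linear and include the offset.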

Additional observations from a re-analysis of the deposited data

Results flagged for a closer look

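The suspension response of 8 named genes differed between the AhR-null and the reconstituted line by a test of the difference itself (limma). For Aldh3a1 the AhR-null minus reconstituted difference was -1.39 ± 0.20 in log2 (0.22 in AhR-null and 1.61 in reconstituted cells, adjusted p = 0.0404, and 0.000352 with the replicate block). The other 7 genes passed with the replicate block and not in the fit without it. Each ± value here is the standard error of the fit without the block. The difference was -1.51 ± 0.38 for Cyp1b1 (-1.10 and 0.42, adjusted p = 0.000262 with the block and 0.91 without). Nqo1 differed by -1.07 ± 0.28 (-0.22 and 0.84, adjusted p = 0.00204 and 0.91). Serpinb2, which fell in AhR-null and rose in reconstituted cells, differed by -1.37 ± 0.27 (-0.55 and 0.82, adjusted p = 0.0216 and 0.249), and it also passed without AhR-null suspension replicate 3. These genes belong to the AhR battery.

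Outside the battery, Tagln fell further in AhR-null cells, with a difference of -1.12 ± 0.21 (-1.85 and -0.72, adjusted p = 0.00566 with the block and 0.249 without). The stress keratin Krt16 rose less, with a difference of -0.94 ± 0.27 (1.41 and 2.35, adjusted p = 0.0244 and 1). Gsta2, also an NRF2 target, rose less by -0.83 ± 0.27 (1.81 and 2.64, adjusted p = 0.0453 and 1). Krt16 and Serpinb2 also passed with the authors' processed values. Fam161a had the opposite sign, with a difference of 1.09 ± 0.17 (0.60 and -0.49, adjusted p = 0.0208 with the block and 0.0513 without), and it ranged from 0.16 to 2.03 over 22 alternatives. The other 7 differences were in the direction of the lower response in AhR-null cells. These 8 genes were drawn only from those named by the rule, a fixed panel of AhR genes among them, and from those called in opposite directions in the lines. Serpinb2 and Fam161a entered by the latter route, so they were chosen because their responses already differed in these data. The balance of the 8 genes therefore does not describe all genes. Over all genes the block gave 7 with a higher and 12 with a lower response in AhR-null cells. Batches other than the replicate number were not tested.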

How the results depend on the processing

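The count of 2524 genes held within 1.5 times under no background correction, saddle-point correction, the authors' processed values, 3 other detection filters, the mean of a gene's probes, YH439 arrays as the adherent control and arrays without replicate 3 of both groups. Median scaling gave 722 genes higher and 1392 lower, 34.2% of calls higher against 47.6% with quantiles, and moved the median of all genes by -0.09. The authors' processed values gave 1556 higher and 1314 lower, 54.2% higher. A fit of only the groups compared called 861 genes (518 higher, 343 lower), 1197 probes and 0 differences between the lines. The replicate block called 5250 genes (2352 higher, 2898 lower), 9063 probes and 19 differences.

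Leaving out 1 replicate at a time gave 1912 to 2630 genes, 910 to 1217 higher, 853 to 1561 lower, and 3093 to 4306 probes. Without suspension replicate 2 the genes lower numbered 853. The count of 1 difference between the lines ran from 0 to 5 over these, and was 0 without background correction, 0 without the dimmest arrays, 3 with detection on 3 of the 12 arrays compared and 9 with the authors' values. Of 178 named genes 147 passed, 102 of them under every alternative in which they were tested (17 or 18 per gene). Of the 147, 45 lost the call in at least 1 alternative, and 0 changed direction. Of the 31 others 19 passed with the block. Some of these others changed sign in fits that did not call them, such as Anxa4 (-0.2 to 0.55). The cause of these shifts was not tested. Slide as a block was not run, because the values carry no slide or position. In the fit of only the groups compared the ATF4 list had 14 rises, the hypoxia list 17 and the glycolysis list 10, against 20, 19 and 12, while falls of mitosis genes numbered 1 against 11. Median scaling gave 17, 18, 9 and 14. Genes near background have the least certain changes.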
